A study of Mus musculus with 6 samples.

Results

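The genes described here encode proteins that the liver and the yolk sac secrete into blood, measured in mouse embryonic hearts at embryonic day 9.5. They were chosen by name: 10 gene symbols, of which 9 (Alb, Afp, Ttr, Rbp4, Fga, Fgb, Fgg, Spink1 and A2m) had an array row carrying that symbol alone, out of 22180 genes measured. Each of the 9 had 1 row. The only row carrying Trf, the transferrin gene, also carried the symbol Srprb, so no value is given for Trf. The set was put together with the difference between the genotypes already known. Its differences are therefore given as a description, without a test, and are not evidence that such genes changed.

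The Hdac3-Isl1KO group held 3 arrays from embryos of genotype Hdac3-flox/flox; Isl1-Cre, and the Hdac3-flox/flox group held 3 arrays from embryos with the floxed alleles and no Cre. All were of strain C57BL/6, and every array measured RNA from pooled hearts, with the number of hearts per pool not given in the sources used here. Hdac3 encodes a histone deacetylase of corepressor complexes, and Isl1-Cre acts in cells that express Isl1, among them the second heart field and, as background, parts of the foregut endoderm, so only part of the cells in a heart carry the deletion. The Cre allele was present in 1 group only, so its own effect cannot be told apart from that of losing Hdac3. Nothing in the labels says whether pools came from separate litters, so p-values reflect how far these pools differ from each other, in part perhaps for technical reasons.

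Values are RMA expression values on the log2 scale, where a difference of 1 is a 2-fold change, and each difference is the Hdac3-Isl1KO mean less the Hdac3-flox/flox mean, with a 95% interval from limma. Array medians lay between 5.64 and 5.71, and correlations between arrays between 0.980 and 0.989, with Hdac3-flox/flox replicate 2 the lowest on average (0.982). Hdac3 read 9.11, 9.20 and 9.31 in Hdac3-Isl1KO hearts and 9.67, 9.73 and 9.64 in Hdac3-flox/flox hearts, a difference of -0.47 that missed the threshold (limma adjusted p = 0.0636). The tissue label was checked with 12 cardiomyocyte markers, among them Nppa, Myl7 and Tnnt2. All 12 lay above the median array row of 5.66, at 9.48 to 13.4. Of the 12, 10 lay below 0 with a median difference of -0.10, and 0 passed the limma threshold. In 9 every Hdac3-Isl1KO array was below every Hdac3-flox/flox array, against 12.4% of all genes. At an unadjusted p under 0.05, 1 was higher and 2 lower, where 6.57% of all genes were higher and 7.96% lower. Their mean level was 11.40 to 11.43 in Hdac3-Isl1KO and 11.49 to 11.52 in Hdac3-flox/flox hearts, and its part in the values below was not tested. In bulk tissue, fewer cells of a type and less RNA per cell cannot be told apart.

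In the early embryo, plasma proteins are first made by the visceral endoderm of the yolk sac and then by the liver bud, which forms from foregut endoderm next to the heart and under signals from it. Albumin and alpha-fetoprotein carry small molecules in blood, transthyretin and retinol-binding protein carry thyroid hormone and retinol, and the fibrinogen chains form the clot. Transcription factors of endoderm, including HNF1, HNF4, FOXA and C/EBP proteins, bind the promoters of many of these genes in hepatocytes.

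Of the 9 genes, 8 had a higher mean in Hdac3-Isl1KO hearts. In 7 of them (A2m, Fgb, Afp, Alb, Spink1, Ttr and Fgg) the lowest Hdac3-Isl1KO array lay above the highest Hdac3-flox/flox array. Over all genes, 9.41% had groups separated in that direction. The median difference was 0.57 for the 9 genes and 9.4e-05 for all genes. The differences ran from -0.17 for Fga to 1.11 for A2m. In the fit over all genes, 2 of the 9, A2m and Fgb, passed the threshold of 0.05 on the limma adjusted p, where 0.428% of all genes passed in either direction and 0.230% upward. At an unadjusted p under 0.05, 6 of the 9 were higher and 0 lower, where 6.57% of all genes were higher and 7.96% lower. With 1 array left out, 0 of the 9 passed the adjusted threshold, except that A2m passed without Hdac3-flox/flox replicate 2. Because the set was chosen from this same difference, nothing is read from these counts.

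**Figure D1:**
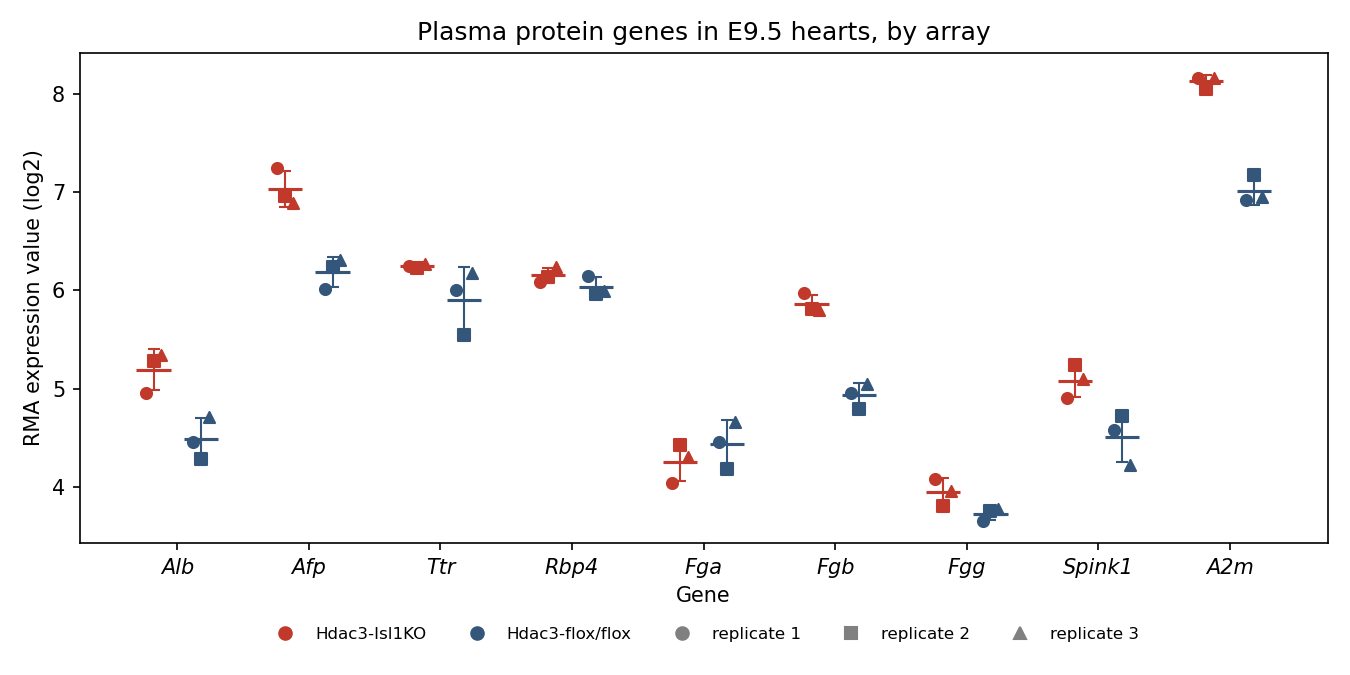
Expression values (RMA, log2, y axis) of the 9 plasma protein genes (x axis) on each array, with Hdac3-Isl1KO in red left of Hdac3-flox/flox in blue. Marker shapes give the replicate number, and lines and bars give the mean and SD of 3 arrays. A2m and Fgb show the widest gaps between the groups, while the groups of Fga and Rbp4 overlap.

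Alb and Afp belong to one gene family and lie next to each other, with their relative Afm following Afp in the RefSeq gene order. Afp, the main plasma protein of the fetus, read 7.24, 6.96 and 6.89 in Hdac3-Isl1KO hearts and 6.02, 6.24 and 6.31 in Hdac3-flox/flox hearts. Every Hdac3-Isl1KO array was at least 0.58 above every Hdac3-flox/flox array, and the means of 7.03 ± 0.19 and 6.19 ± 0.15 (SD, n = 3 each) differed by 0.84 (0.55 to 1.13), or 1.79-fold. Alb, the gene for serum albumin, read 4.96, 5.28 and 5.34 in Hdac3-Isl1KO hearts and 4.46, 4.29 and 4.71 in Hdac3-flox/flox hearts. Its groups did not overlap, but Hdac3-Isl1KO replicate 1 stood only 0.25 above Hdac3-flox/flox replicate 3, and that same replicate 1 was the highest array for Afp. The Alb means were 5.19 ± 0.21 and 4.49 ± 0.21 (SD, n = 3 each), a difference of 0.71 (0.37 to 1.05), or 1.63-fold. Afm, for the vitamin E carrier afamin, averaged 3.87 ± 0.18 in Hdac3-Isl1KO and 3.75 ± 0.06 in Hdac3-flox/flox hearts, and its groups overlapped (difference 0.12, limma adjusted p = 0.642). The row for Alb was dim in both groups.

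The promoters of Alb and Afp are printed because these neighbours share a known control by HNF1 in hepatocytes and both had higher means in Hdac3-Isl1KO hearts. The windows run from 250 bases before to 50 bases after the gene start (RefSeq, build GRCm38.p6), written in the direction of the gene, and capitals mark GTTAAT or its reverse complement ATTAAC, a core of HNF1 motifs.
Alb promoter, chr5:90460620-90460919, plus strand: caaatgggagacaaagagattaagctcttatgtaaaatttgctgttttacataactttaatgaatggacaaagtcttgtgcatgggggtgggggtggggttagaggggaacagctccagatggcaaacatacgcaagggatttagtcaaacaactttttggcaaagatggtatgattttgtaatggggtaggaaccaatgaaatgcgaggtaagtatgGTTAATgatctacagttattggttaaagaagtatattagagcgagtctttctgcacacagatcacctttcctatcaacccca
Afp promoter, chr5:90490464-90490763, plus strand: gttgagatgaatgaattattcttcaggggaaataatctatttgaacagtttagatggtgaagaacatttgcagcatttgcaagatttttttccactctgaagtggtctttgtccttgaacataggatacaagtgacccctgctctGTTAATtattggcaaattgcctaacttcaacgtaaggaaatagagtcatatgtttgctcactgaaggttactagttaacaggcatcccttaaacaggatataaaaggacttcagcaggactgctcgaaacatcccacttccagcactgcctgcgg
The capitals start 32 bases upstream of the Alb start and 105 bases upstream of the Afp start. Among 32851 promoter windows of this length, 7.10% hold GTTAAT on either strand. The letters were chosen after the promoters were read, so nothing is read from that share. Only exact letters were sought, so looser HNF1 matches are not marked. The Rbp4 windows, not printed, hold 0 matches. Both windows also hold the C/EBP letters TTGCNNAA, which are in 10.8% of windows, and neither match overlaps the HNF1 letters. Neither window holds the FOXA letters TGTTTAC (3.65% of windows) or the HNF4 letters CAAAGTCC (1.42%).

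Fga, Fgb and Fgg encode the 3 chains that are joined into fibrinogen, and they stand together in a cluster. Their values on these arrays were not alike. Fgb, for the beta chain, read 5.97, 5.81 and 5.81 in Hdac3-Isl1KO hearts and 4.96, 4.79 and 5.05 in Hdac3-flox/flox hearts. Its groups were 0.76 apart at their closest, and the means of 5.86 ± 0.09 and 4.93 ± 0.13 (SD, n = 3 each) differed by 0.93 (0.71 to 1.15), or 1.91-fold. Fga, for the alpha chain, read 4.04, 4.43 and 4.31 in Hdac3-Isl1KO hearts and 4.46, 4.18 and 4.66 in Hdac3-flox/flox hearts. The groups overlapped, and Fga was the 1 gene of the 9 with a negative difference, -0.17 (-0.53 to 0.18). Fgg, for the gamma chain, read 4.09, 3.80 and 3.96 in Hdac3-Isl1KO hearts and 3.66, 3.76 and 3.78 in Hdac3-flox/flox hearts. Its groups were separated by 0.03, with a difference of 0.22 (0.01 to 0.44). Both Fga and Fgg lay below the 25th percentile array row of 4.45, and the part of their low level in these differences was not tested.

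Fibrinogen protein is also stored in platelets, but the arrays measure RNA, so stored protein does not bear on these values. The platelet list is given beside the chains as a description. Of 13 measured megakaryocyte and platelet genes, 10 were lower in Hdac3-Isl1KO hearts, with a median difference of -0.37. At an unadjusted p under 0.05, 8 of the 13 were lower and 0 higher (7.96% and 6.57% of all genes). In 5 of the 13 every Hdac3-Isl1KO array was below every Hdac3-flox/flox array (12.4% of all genes), and in 0 above. Their mean level was 6.39 to 6.46 on the Hdac3-Isl1KO arrays and 6.69 to 6.75 on the Hdac3-flox/flox arrays. Ppbp, a platelet chemokine, fell, at 5.61 ± 0.20 in Hdac3-Isl1KO and 6.54 ± 0.07 in Hdac3-flox/flox hearts (SD, n = 3 each, limma adjusted p = 0.0300), and with each array left out in turn it was past the threshold in 0 of 6 fits. The part of platelets in the fibrinogen RNA values was not tested.

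The fibrinogen promoters are shown because these neighbours are made together in hepatocytes and had unlike values here. Fga and Fgg were too dim to be called expressed, so nothing is read from how the promoters differ. Build, window and capitals are as for Alb and Afp.
Fga promoter, chr3:83025903-83026202, plus strand: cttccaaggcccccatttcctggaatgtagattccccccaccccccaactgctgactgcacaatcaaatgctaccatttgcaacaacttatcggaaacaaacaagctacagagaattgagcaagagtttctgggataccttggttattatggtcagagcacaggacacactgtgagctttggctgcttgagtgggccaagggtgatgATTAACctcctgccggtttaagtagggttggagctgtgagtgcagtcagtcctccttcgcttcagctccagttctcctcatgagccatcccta
Fgb promoter, chr3:83049814-83050113, minus strand: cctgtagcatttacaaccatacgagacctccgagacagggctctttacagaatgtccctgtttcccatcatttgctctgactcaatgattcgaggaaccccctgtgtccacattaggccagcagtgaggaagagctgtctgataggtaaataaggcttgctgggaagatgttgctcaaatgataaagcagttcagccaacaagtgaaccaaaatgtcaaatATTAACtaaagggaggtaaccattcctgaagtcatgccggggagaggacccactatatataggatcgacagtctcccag
Fgg promoter, chr3:83007474-83007773, plus strand: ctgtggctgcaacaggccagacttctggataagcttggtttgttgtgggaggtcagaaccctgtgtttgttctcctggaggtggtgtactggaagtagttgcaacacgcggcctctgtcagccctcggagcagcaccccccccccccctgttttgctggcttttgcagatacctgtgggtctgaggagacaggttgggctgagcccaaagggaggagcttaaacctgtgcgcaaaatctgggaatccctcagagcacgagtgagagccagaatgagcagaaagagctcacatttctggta
The HNF1 letters start 43 bases upstream of the start of Fga and 29 bases upstream of that of Fgb, both as ATTAAC, and the Fgg window holds 0 matches. The C/EBP letters are in the windows of Fga and Fgb and not in that of Fgg, and none of the 3 holds the FOXA or HNF4 letters.

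The carriers of thyroid hormone and retinol showed small differences. Ttr, for transthyretin, read 6.25, 6.23 and 6.27 in Hdac3-Isl1KO hearts and 6.00, 5.54 and 6.18 in Hdac3-flox/flox hearts. The groups were separated by 0.06, and the Hdac3-Isl1KO arrays were tight while Hdac3-flox/flox replicate 2 lay far below the rest. The means were 6.25 ± 0.02 and 5.91 ± 0.33 (SD, n = 3 each), a difference of 0.34 (-0.03 to 0.71), which fell to 0.16 without Hdac3-flox/flox replicate 2. Rbp4, for the retinol-binding protein that circulates bound to transthyretin, read 6.09, 6.14 and 6.23 in Hdac3-Isl1KO hearts and 6.15, 5.96 and 5.99 in Hdac3-flox/flox hearts. Its groups overlapped, with a difference of 0.12 (-0.08 to 0.31). Stra6, the cell surface receptor for this retinol carrier, differed by 0.18 (limma adjusted p = 0.491).

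The set holds a pair of protease inhibitor genes. A2m, for an alpha-2-macroglobulin that traps proteases of many kinds, read 8.16, 8.05 and 8.16 in Hdac3-Isl1KO hearts and 6.92, 7.17 and 6.95 in Hdac3-flox/flox hearts. The groups were 0.88 apart at their closest, the widest gap of the 9 genes, and the means of 8.12 ± 0.06 and 7.01 ± 0.14 (SD, n = 3 each) differed by 1.11 (0.90 to 1.33), or 2.16-fold. Spink1, for a secreted trypsin inhibitor, read 4.91, 5.24 and 5.10 in Hdac3-Isl1KO hearts and 4.58, 4.72 and 4.23 in Hdac3-flox/flox hearts. Its groups were 0.18 apart, and the means of 5.08 ± 0.17 and 4.51 ± 0.26 (SD, n = 3 each) differed by 0.57 (0.22 to 0.92), or 1.48-fold.

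The relatives of A2m did not share one direction. Mug1 and Mug2, murinoglobulin genes, follow A2m in the gene order. Mug2 averaged 4.42 ± 0.05 in Hdac3-Isl1KO and 3.44 ± 0.44 in Hdac3-flox/flox hearts (SD, n = 3 each), a difference of 0.98 that did not pass (limma adjusted p = 0.111) but did without Hdac3-flox/flox replicate 1 (limma adjusted p = 0.0495). Mug1 differed by -0.06 (limma adjusted p = 0.887), A2ml1 by -0.09 (limma adjusted p = 0.780), and Pzp, which encodes the main alpha-macroglobulin of mouse plasma, by 0.19 (limma adjusted p = 0.490). The murinoglobulin genes are close copies, and a probe for one may bind RNA of the other, which makes their values uncertain. Of 21 measured relatives of the whole set, 13 were above 0 with a median of 0.10, and 0 passed with limma over all genes. At an unadjusted p under 0.05, 5 were higher and 2 lower, where 6.57% of all genes were higher and 7.96% lower. Beside Mug2 the smallest p-values were those of Rbp7 (0.33), a cellular retinol-binding protein gene, Spink4 (0.41) and Spink2 (-0.36), relatives of Spink1, with limma adjusted p from 0.144 to 0.210.

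**Figure D2:**
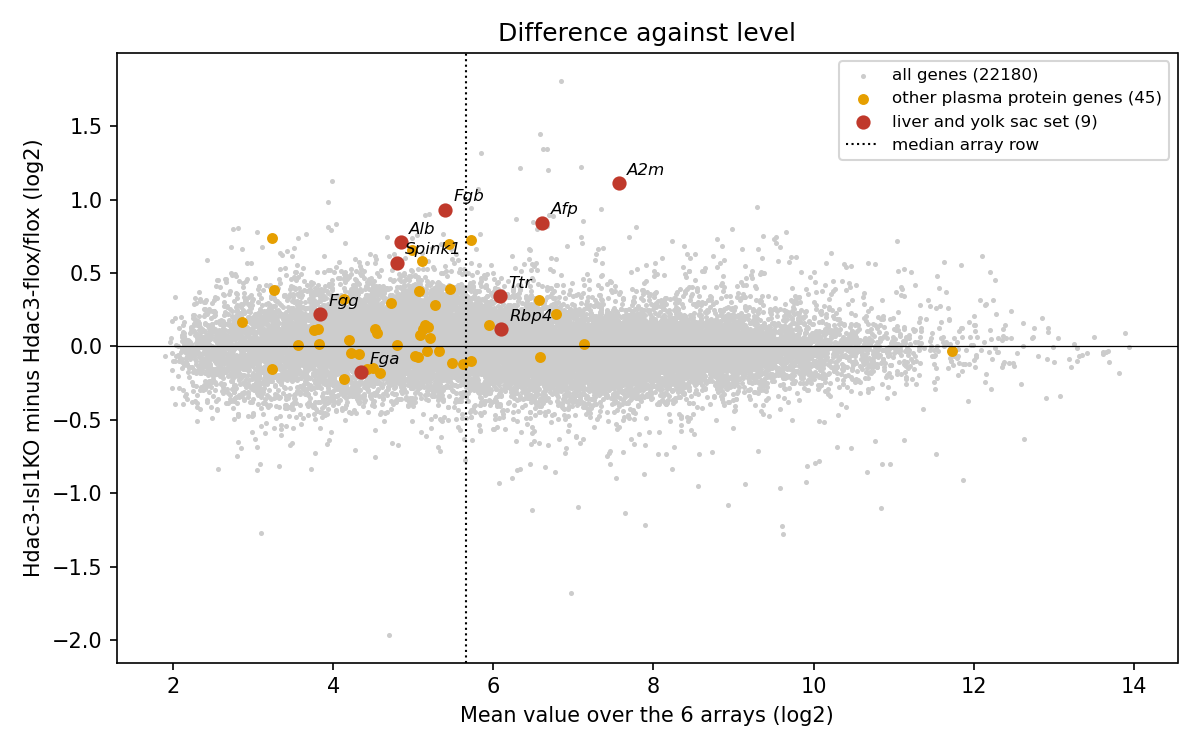
Difference between Hdac3-Isl1KO and Hdac3-flox/flox (log2, y axis) against the mean value over the 6 arrays (log2, x axis) for all 22180 genes in grey, 45 other plasma protein genes in orange and the 9 plasma protein genes in red; the dotted line is the median array row. A2m and Afp stand above the grey cloud at medium level, and Fga and Fgg lie inside it at low level.

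Dim rows limit several of these values. Of the 9 genes, 5 had a mean below the median array row and 2 below the 25th percentile row. No detection calls were used here, so 1105 olfactory receptor genes, which the heart is not known to use, served as a guide to unexpressed rows, with the limit that probes differ in brightness. Their median was 3.47 and their 95th percentile 5.44. A2m, Afp, Ttr and Rbp4 had means over the 6 arrays above that percentile. Fgb lay above it in Hdac3-Isl1KO hearts (5.86) and below it in Hdac3-flox/flox hearts (4.93), and Alb, Spink1, Fga and Fgg lay below it in both groups, so these 4 genes cannot be called expressed from these values.

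Within a group, the arrays high for one gene were not in general high for the next. Across the 36 pairs of the 9 genes, deviations from the group means over the 6 arrays gave a positive correlation for 16 pairs, with a median r of -0.05 and a range from -0.91 to 0.94. These are descriptions over 6 arrays that share normalisation. Hdac3-Isl1KO replicate 1 was the highest of its group for Afp, Fgb, Fgg and A2m and the lowest for Alb, Rbp4, Fga and Spink1. Hdac3-flox/flox replicate 2 was the lowest of its group for Alb, Ttr, Rbp4, Fga and Fgb and the highest for Spink1 and A2m. Averaged over the 9 genes, the Hdac3-Isl1KO arrays stood at 5.74, 5.77 and 5.79, against 5.24, 5.18 and 5.32 on the Hdac3-flox/flox arrays.

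**Figure D3:**
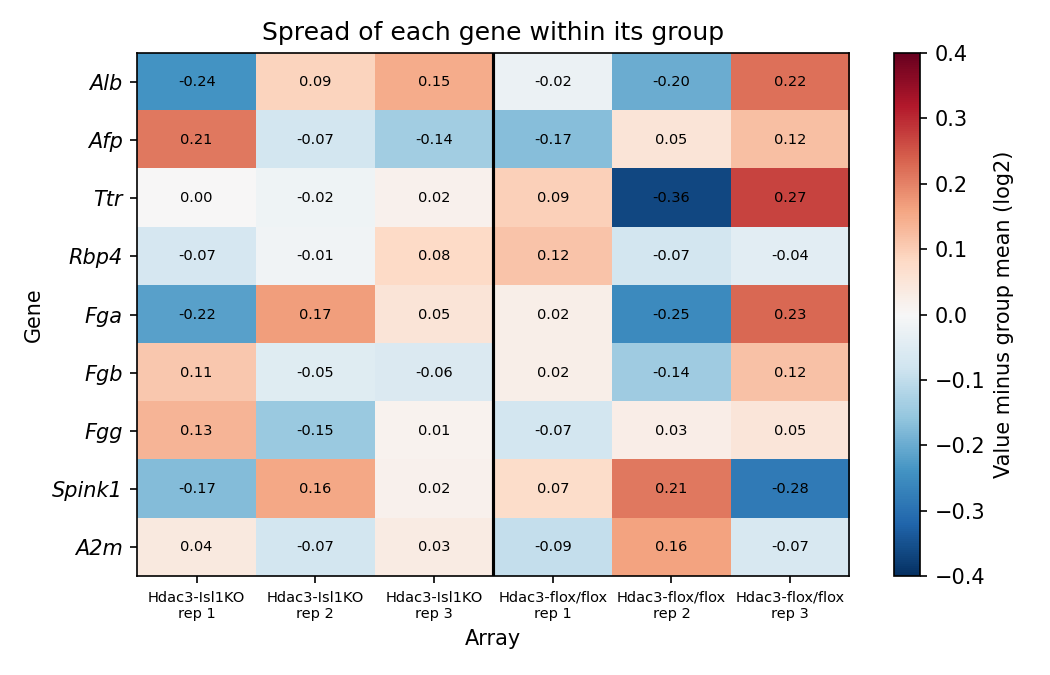
Each cell gives a gene's value on an array minus its mean over the 3 arrays of that group (log2, colour and number), for the 9 genes (rows) and 6 arrays (columns, Hdac3-Isl1KO left of the black line and Hdac3-flox/flox right of it). No array is high or low for all 9 genes, and the widest deviation is that of Ttr on Hdac3-flox/flox replicate 2, at -0.36.

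The other secreted plasma proteins of liver and yolk sac were listed by their known role, with earlier results of these data known, so the list is not an independent check. Of 50 genes listed 45 were measured, and 1 of them rose over all genes (limma, adjusted p under 0.05; 0.230% of all genes did), while 0 fell and 8 were higher and 0 lower at an unadjusted p under 0.05 (6.57% of all genes were higher at that level). The gene that rose was Itih2, for a heavy chain of the inter-alpha-trypsin inhibitor that is bound to hyaluronan of the matrix. It read 5.70, 5.85 and 5.84 in Hdac3-Isl1KO hearts and 5.20, 5.15 and 4.96 in Hdac3-flox/flox hearts, so the groups did not overlap. Its means of 5.80 ± 0.09 and 5.10 ± 0.13 (SD, n = 3 each) differed by 0.70, or 1.62-fold (limma adjusted p = 0.0395), and it was past the threshold in 0 of the 6 fits that left out an array.

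The list as a whole was shifted little. Of the 45 genes 29 lay above 0, the median difference was 0.08, and 8 genes, or 17.8%, had all Hdac3-Isl1KO arrays above all Hdac3-flox/flox arrays, against 9.41% of all genes. None had the groups separated the other way. Serpinf2, for alpha-2-antiplasmin, differed by 0.72 (limma adjusted p = 0.0880). Ambp, for the light chain that joins the Itih2 product and for alpha-1-microglobulin, differed by 0.66, and Vtn, for vitronectin, by 0.58 (limma adjusted p = 0.164 and 0.163). By subgroup, 11 of 12 serpin genes were above 0 with a median of 0.11. Of these serpin genes 3 were higher at an unadjusted p under 0.05 (6.57% of all genes were), and both measured complement genes were above 0. Of 12 coagulation genes 5 were above 0, with a median of -0.04 and 0 at that p. At the low end of the list stood F2, the prothrombin gene, at -0.22, and Ahsg, a fetuin abundant in fetal plasma, at -0.18 (limma adjusted p = 0.618 and 0.543). Of the 45 genes, 37 lay below the median array row, so a difference could be missed in most of them. The median difference was 0.08 both for these 37 genes and for the 8 brighter ones, with 64.9% and 62.5% above 0. Itih2 was among the 37.

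**Figure D4:**
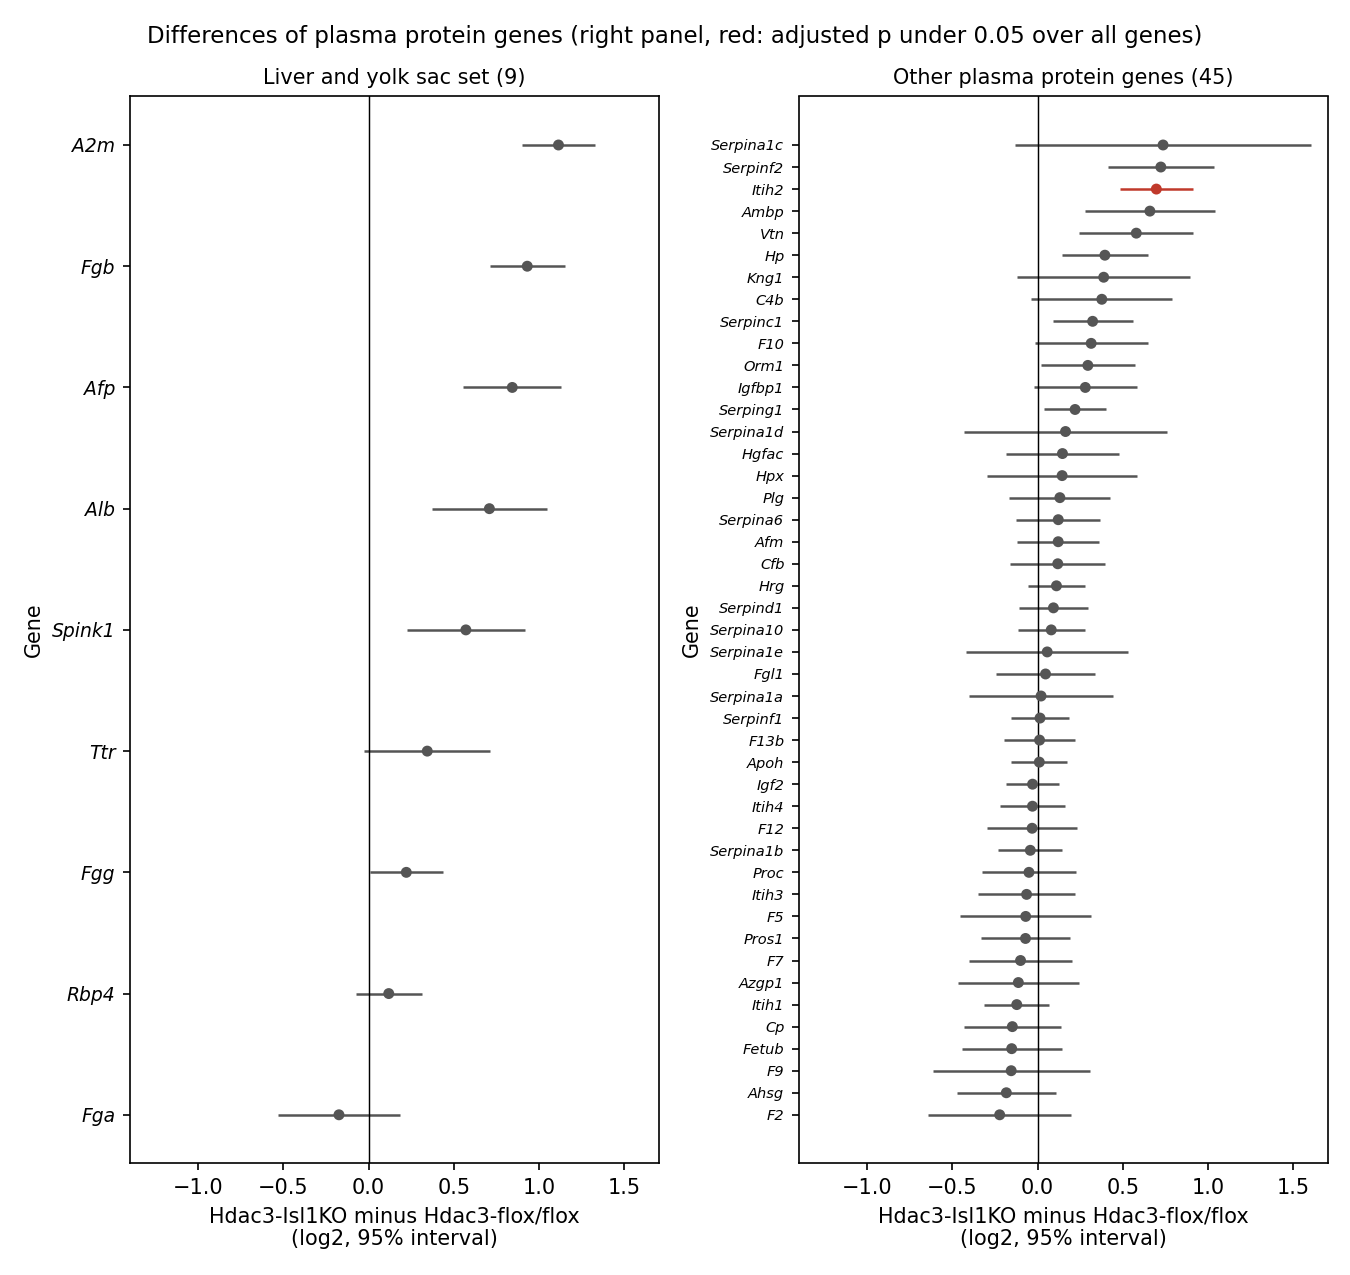
Difference between Hdac3-Isl1KO and Hdac3-flox/flox (log2, x axis) with its 95% interval for the 9 plasma protein genes (left) and 45 other plasma protein genes (right), each sorted by size (y axis). On the right, 1 gene, Itih2, passed the threshold over all genes and is drawn in red, and 29 of 45 points lie above 0.

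Apolipoprotein genes, the lipid carriers of the same cells, had 13 of 14 measured members above 0 and a median of 0.18, with 0 past the limma threshold over all genes. At an unadjusted p under 0.05, 2 were higher, Apoa2 (0.39) and Apoc1 (0.26), where 6.57% of all genes were higher. Receptors and uptake partners of the plasma proteins did not share their direction. Of 17 measured, 9 lay above 0, the median was 0.01, and 0 passed with limma. At an unadjusted p under 0.05, 3 were lower and 0 higher, where 7.96% of all genes were lower. Those 3 were Itga2b (-0.33), a chain of the platelet receptor for fibrinogen, Tfrc (-0.29), the transferrin receptor gene, and Itgav (-0.19), with limma adjusted p from 0.137 to 0.255. Lrp2, Cubn and Amn, which encode the uptake receptors of the yolk sac for albumin and retinol-binding protein, differed by -0.05, 0.03 and -0.001.

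The listed regulators of liver and yolk sac endoderm showed little difference in these hearts. Of 21 measured transcription factor genes 15 lay above 0, the median was 0.06, and 0 passed with limma over all genes. At an unadjusted p under 0.05, 2 were higher and 1 lower, where 6.57% of all genes were higher and 7.96% lower. Foxa1, a pioneer factor of endoderm, differed by 0.32, Hhex, needed for the liver bud, by 0.25, Nr2f2, an orphan nuclear receptor gene, by 0.16, and Zhx2, which represses Afp after birth in mouse liver, by -0.18 (limma adjusted p from 0.233 to 0.440). Hnf4a, a central regulator of hepatocyte genes, read 5.63, 5.44 and 5.42 in Hdac3-Isl1KO hearts and 5.35, 5.07 and 5.64 in Hdac3-flox/flox hearts. Its groups overlapped, with a difference of 0.14 (limma adjusted p = 0.712). Over the 6 arrays Hnf4a averaged 5.43, just below the 95th percentile of the olfactory receptor genes (5.44). Other listed genes were bright in both groups, such as Gata6 (9.78), Gata4 (9.60) and Nr2f2 (7.99). Which cells gave these values was not tested, so a difference in endoderm cells alone could be missed.

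Marker lists of tissues near the heart are given beside the plasma protein genes, since dissected hearts can carry other cells. The early liver list left out plasma proteins but also held enzymes of later hepatocytes, such as Tat and Cyp7a1. Of its 18 measured genes 16 lay above 0, with a median of 0.16. At an unadjusted p under 0.05, 4 were higher and 0 lower, where 6.57% of all genes were higher and 7.96% lower. In the fit over all genes 2 rose at a limma adjusted p under 0.05, where 0.230% of all genes did. These were Tdo2 (2.30-fold, limma adjusted p = 0.00989), which breaks down tryptophan, and Dlk1 (1.59-fold, limma adjusted p = 0.0394), an imprinted growth gene. Which cells gave these 2 values was not tested. With each array left out in turn, Dlk1 passed in 0 of 6 fits and Tdo2 in 2, those without Hdac3-Isl1KO replicate 2 and Hdac3-flox/flox replicate 2. The next smallest p-values were those of Krt19 (0.19), a keratin gene of simple epithelia, and Hhex (0.25), with limma adjusted p of 0.266 and 0.315. The list's other transcription factor genes were Onecut1 (0.20), Hnf4a (0.14), Prox1 (0.06), Tbx3 (0.02) and Cebpa (-0.10). The mean level of the list was 6.10 to 6.16 on the Hdac3-Isl1KO arrays and 5.82 to 5.99 on the Hdac3-flox/flox arrays. Visceral endoderm markers had 12 of 18 above 0, a median of 0.06 and 0 past the limma threshold. At an unadjusted p under 0.05, 1 was higher (Slc39a4, 0.37) and 1 lower (Maf, -0.35), which is near the shares over all genes (6.57% higher and 7.96% lower). Their mean level was 6.32 to 6.37 in Hdac3-Isl1KO and 6.27 to 6.30 in Hdac3-flox/flox hearts. Gut endoderm and epithelial markers had 12 of 13 above 0 and a median of 0.32, with 0 past the limma threshold. At an unadjusted p under 0.05, 7 were higher and 0 lower (6.57% of all genes were higher). Those 7 were the epithelial genes Epcam (0.52), Krt8 (0.48), Cldn7 (0.42), Cdh1 (0.41), Krt18 (0.39) and Cldn6 (0.38), and Foxa1 (0.32). The others, not past that p, were Sox2 (0.15), Cdx2 (0.09), Foxa2 (0.08), Shh (0.06), Pax9 (0.007) and Nkx2-1 (-0.10). Most of the higher genes thus mark epithelia and not gut endoderm alone. In 8 of the 13, or 61.5%, every Hdac3-Isl1KO array was above every Hdac3-flox/flox array, against 9.41% of all genes, and the list had a mean level of 5.75 to 5.87 in Hdac3-Isl1KO and 5.47 to 5.61 in Hdac3-flox/flox hearts.

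Trophoblast genes had more calls than any other of the 16 lists. Of 20 measured trophoblast genes 6 rose and 0 fell at a limma adjusted p under 0.05, where 0.230% of all genes rose and 0.198% fell. The median of the list was 0.28, and its mean level was 5.11 to 5.16 in Hdac3-Isl1KO and 4.59 to 4.63 in Hdac3-flox/flox hearts. Those that rose were the placental prolactin genes Prl4a1 (1.81, limma adjusted p = 0.00127), Prl3d3 (1.44) and Prl7a1 (1.32), the steroid synthesis genes Cyp11a1 (1.35) and Star (1.22), and Psg29 (1.22), a pregnancy-specific glycoprotein gene. Between 1 and 6 of them passed with an array left out, and Prl4a1 did in 6 of 6 fits. Of the 20 genes, 11 lay below the 25th percentile row. Parietal endoderm markers had 10 of 18 above 0, and Lama1 rose by 0.89 (limma adjusted p = 0.0107). At an unadjusted p under 0.05, 4 of the 18 were higher and 3 lower (6.57% and 7.96% of all genes). The 3 lower ones were Cited1 (-0.36), Plat (-0.28) and Sparc (-0.24). In 6 every Hdac3-Isl1KO array was above every Hdac3-flox/flox array (9.41% of all genes), and in 3 below (12.4%). The mean level of the list was 7.84 to 7.91 in Hdac3-Isl1KO and 7.78 to 7.81 in Hdac3-flox/flox hearts. Decidual markers had 11 of 15 above 0, and 3 fell (Prl8a2, Dcn and Gja1) with 0 rising. Their mean level was 6.60 to 6.71 in Hdac3-Isl1KO and 6.71 to 6.77 in Hdac3-flox/flox hearts. Some listed genes were bright in both groups. Over the 6 arrays Cryab averaged 11.3, Gja1 9.36 and Hand2 8.85 in the decidual list. In the trophoblast list Hand1 averaged 8.62, and in the parietal endoderm list Sparc averaged 10.1. In the visceral endoderm list Podxl averaged 9.31, Emb 8.83 and Dab2 8.59. Which cells gave these values was not tested, so the lists do not measure those tissues alone. Of 10 measured erythroid genes 4 were above 0 and 1, Kel, fell (-0.82), and their mean level was 7.92 to 7.98 in Hdac3-Isl1KO and 8.05 to 8.10 in Hdac3-flox/flox hearts. Of 12 macrophage genes 10 were above 0 with 0 past the limma threshold and 2 higher at an unadjusted p under 0.05, and their mean level was 5.65 to 5.80 in Hdac3-Isl1KO and 5.49 to 5.63 in Hdac3-flox/flox hearts. With an array left out, Lama1 and Kel passed in 1 fit each, the one without Hdac3-flox/flox replicate 2, and the 3 decidual genes in 0. As arrays have no true zero, no marker can be called absent. The part of any of these cell types in the values of the plasma protein genes was not tested.

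**Figure D5:**
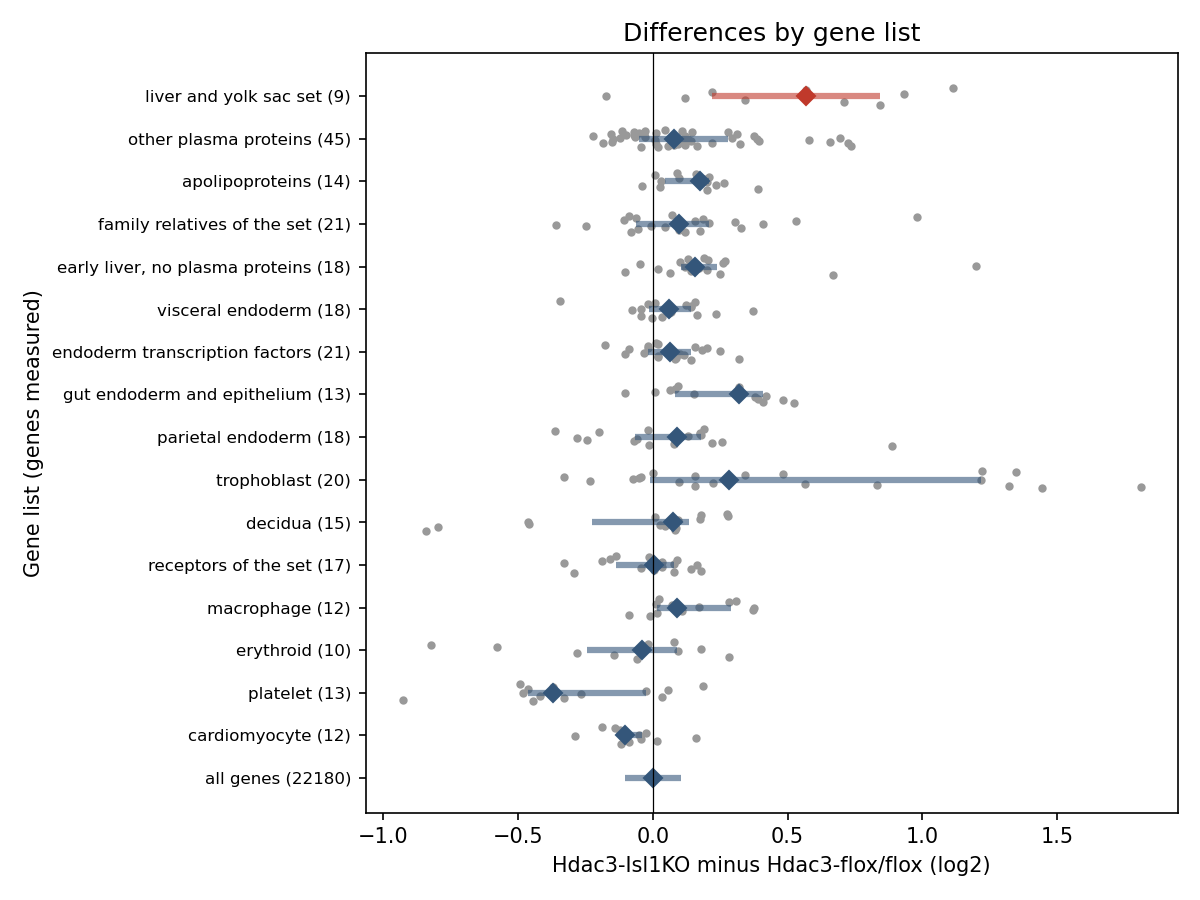
Difference between Hdac3-Isl1KO and Hdac3-flox/flox (log2, x axis) of each measured gene (grey points), with the median (diamond) and the middle 50% of genes (bar) for each list (y axis, number of genes measured in brackets); single genes are not drawn for all genes. The 9 plasma protein genes in red have a median of 0.57, against 0.32 for the gut endoderm and epithelium list, 0.28 for the trophoblast list and 0.08 for the other plasma proteins.

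The genes most like the set over the 6 arrays were found by the correlation with the average profile of the 9 genes, among 2257 genes with an SD over the arrays of at least 0.25. The 8 highest were Cxcl14 (r = 0.996), a chemokine gene, S100a10 (0.996), for a calcium-binding-family protein, the ribosomal protein genes Rps19 (0.993) and Rpl9 (0.989), Bex4 (0.993), Bola2 (0.989), Rprl2 (0.989) and Lbp (0.989). Lbp encodes the lipopolysaccharide-binding protein, itself a plasma protein of the liver that the list above did not hold. It read 7.56, 7.65 and 7.60 in Hdac3-Isl1KO hearts and 6.94, 6.98 and 7.001 in Hdac3-flox/flox hearts, without overlap (difference 0.63, limma adjusted p = 0.0209). Any gene that separates the 2 groups cleanly scores high on this measure over 6 arrays, which share their normalisation, so it is a description.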

How the data were processed

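Hearts were profiled on Affymetrix arrays, and labelled cDNA was made from 100 ng total RNA with the WT PLUS kit, per the labels' protocols. The authors deposited RMA log2 values, made with oligo and RMA per the submitters' processing notes. Tool versions and the annotation build: not given in the sources used here. No array date or batch was used. Of 41345 rows, 23521 carried 1 gene symbol in the platform annotation, 1814 several and 16010 none. For a gene with several rows the one with the highest mean was used, which gave 22180 genes, 21994 of them matched by gene number to RefSeq (GRCm38.p6). No dim row was left out. R 4.3.3 and limma 3.58.1 gave the differences (lmFit, then eBayes, 6.92 degrees of freedom, two-sided). P-values were adjusted by Benjamini and Hochberg's method across the 22180 genes, a gene passed below 0.05, and the steps were tested on simulated data. Promoters are from RefSeq, and 6 of the 10 genes matched. Motif letters were chosen after the promoters were read. Plots were drawn with matplotlib 3.10.9.

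The gene set and the 16 lists were chosen with earlier results of these data known. Named are all genes of the set, Hdac3, list genes past the threshold or among the 4 smallest p-values of a list, and the 8 genes most like the set, with symbols of predicted and microRNA genes left out. Neighbours, relatives, receptors and a few enzymes and regulators close to the set were named after their values were seen. Other settings tried were leaving out each array, a block for the replicate number, quantile normalization, centring on array medians, 2 filters on dim rows, averaging the rows of a gene, a prior trended on level, and array weights. Only 3 arrays per group limit the precision.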

Additional observations from a re-analysis of the deposited data

How the results depend on the processing

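The sign of the difference of each of the 9 plasma protein genes, Itih2 and Hdac3 was the same under every alternative in which the gene was kept, of 14 run, while calls depended on the setting. Leaving out 1 array moved the count of all genes called from 95 to between 2 and 25, that of the 9 genes from 2 to between 0 and 1 (A2m, without Hdac3-flox/flox replicate 2), that of the 45 other plasma protein genes from 1 to 0, and the median of the 9 genes to between 0.48 and 0.66, and where an array is left out fewer samples are tested. Of the 9 genes and the 45 other genes, 4 and 2 were called with a prior trended on the mean level, where 866 of all genes were, and 4 and 2 with array weights, where 243 were. The additional ones of the 9 were Afp and Alb. Quantile normalization, centring and the 25th percentile filter, which kept 7 and 31 of them, called 3 and 1, adding Afp. The mean of rows called 2 and 1. The filter at the median row kept only 4 and 8 and called 2, A2m and Afp, and 1. It left out Fgb and Itih2. The count over all genes was 149 with quantile normalization, 617 without genes below the median row and 235 without those below the 25th percentile row, where the median of the 9 genes was 0.71 over the 7 genes kept. The cause was not tested, other than that filters test fewer genes. Afp, with a limma adjusted p of 0.0515, passed under 6 of the alternatives, with a range of 0.00231 to 0.209.

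Same-numbered arrays of the groups showed little shared deviation: the correlations of their deviations were -0.02, -0.08 and 0.03, and 1 of 6 arrays correlated best with its own number. These values cannot say whether same-numbered pools shared a litter or a processing step. With the replicate block limma called 0 of all genes, 0 of the 9 and 0 of the 45, where 2744, 6 and 9 had an unadjusted p under 0.05. Dim signal limits Alb, Spink1, Fga and Fgg most.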
